A study of Oryza sativa Japonica Group with 18 samples.

Results

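WRKY proteins are plant transcription factors that share a zinc-binding DNA-binding domain and recognise short W-box elements in promoters. They are best known for their part in defence, where chitin receptors, MAP kinases and salicylate signalling act upstream of them, and several act as repressors of hormone responses. In the aleurone of germinating rice grains, members of the family repress genes switched on by gibberellin. The genes described here were all those whose symbol or synonym in the annotation of the Affymetrix rice array, or of the RefSeq gene table, was WRKY followed by a number. The rule found 6 genes among the 17905 genes to which probe sets could be assigned singly: OsWRKY51, OsWRKY71, OsWRKY24, OsWRKY62, OsWRKY76 and WRKY9. The rice family is far larger, and WRKY genes that carry only a locus number in these tables were not analysed here, so the 6 genes are a named subset and not the family.

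Roots of 2-week-old hydroponic seedlings of the japonica cultivar Nipponbare were sampled 6 h, 3 d and 5 d after transfer to solution without K+ (LK), and roots of seedlings kept in K+-replete solution with 1 mM K+ (CK) were sampled at the same times. Each of the 6 groups (LK 6 h, CK 6 h, LK 3 d, CK 3 d, LK 5 d and CK 5 d) had 3 biological replicates, each hybridised to its own array with RNA pooled from 5 seedlings, so differences between single plants were not visible. Whole roots were used, and a lower signal from fewer cells of a type and a lower signal from less RNA per cell cannot be told apart in such samples. Values are the authors' normalised signal intensities on a linear scale, whose array medians ran from 22.1 to 23.4.

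HAK1, a high-affinity K+ transporter gene induced by K+ starvation, was higher in LK roots at each time. Its signal was 1.17, 1.22 and 1.25 times that in CK roots at 6 h, 3 d and 5 d (limma, adjusted p = 0.0135, 9.9e-05 and 1.16e-05). Some probe sets are of types that can also bind transcripts of related genes. Among them are those of HAK1, of the shoot genes RBCS and RCABP69, and of GAMYB, CYP76M8 and JAZ10, described further on. All 4 root genes that could be matched passed the filter on low signals, with a summed signal between 9690 and 11721 on LK arrays and between 10751 and 12289 on CK arrays. At 5 d this sum was 9962 to 10414 on LK and 11559 to 11757 on CK arrays. Of the 4 genes 2 were called lower at 5 d (Lsi2, a silicon exporter gene, and AMT1-2, an ammonium transporter gene), against 12.8% of all probe sets tested. AMT1-2 was also called lower at 3 d (0.788 times CK, limma adjusted p = 0.0242), against 5.75% of all probe sets tested. The 4 shoot genes that could be matched were also above the filter. Their summed signal was 2875 to 3523 on LK and 2137 to 2917 on CK arrays at 6 h, 5079 to 6480 on LK and 4450 to 6290 on CK arrays at 3 d, and 6650 to 7870 on LK and 5444 to 6285 on CK arrays at 5 d. At 5 d this sum was higher on every LK array than on any CK array. Of the 4 photosynthesis genes 2, RBCS and RCABP69, were called higher at 5 d, against 10.5% of all probe sets tested. RBCS (the small subunit of Rubisco) averaged 514 ± 285 in LK roots and 122 ± 12.2 in CK roots (SD, n = 3 each). The part of these marker differences in the WRKY results at 3 d and 5 d was not tested.

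Of the 6 WRKY genes, 2 were called for an LK effect at some time (limma, Benjamini-Hochberg adjustment over the 25165 probe sets with the highest mean signal, call at an adjusted p under 0.05). OsWRKY51 was higher in LK roots at 3 d and 5 d, by 1.33-fold and 1.57-fold. OsWRKY62 was lower in LK roots at 5 d, at 0.713 times CK, and this call did not hold under most other settings. In this fit, which held no term for the replicate number of the arrays, OsWRKY71, OsWRKY24, OsWRKY76 and WRKY9 passed the threshold at no time. At 6 h no WRKY gene was called, against 0.529% of all probe sets tested, and 1 gene, OsWRKY62, had an unadjusted limma p under 0.05. At 3 d 1 of 6 was called higher and none lower, against 8.5% higher and 5.75% lower among all probe sets, and 2 had an unadjusted p under 0.05. At 5 d 1 of 6 was called higher and 1 lower, against 10.5% and 12.8%. The shares were not tested against this background. With the replicate number as a block within times, OsWRKY76 was also called higher at 3 d (limma adjusted p = 0.00976). At 5 d it was then called lower (adjusted p = 0.0312), as was OsWRKY24 (adjusted p = 0.0246). The median log2 difference, LK minus CK, over the 6 genes was 0.11, 0.20 and -0.18 at 6 h, 3 d and 5 d, beside -0.00068, 0.04 and -0.03 over all probe sets tested.

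**Figure D1:**
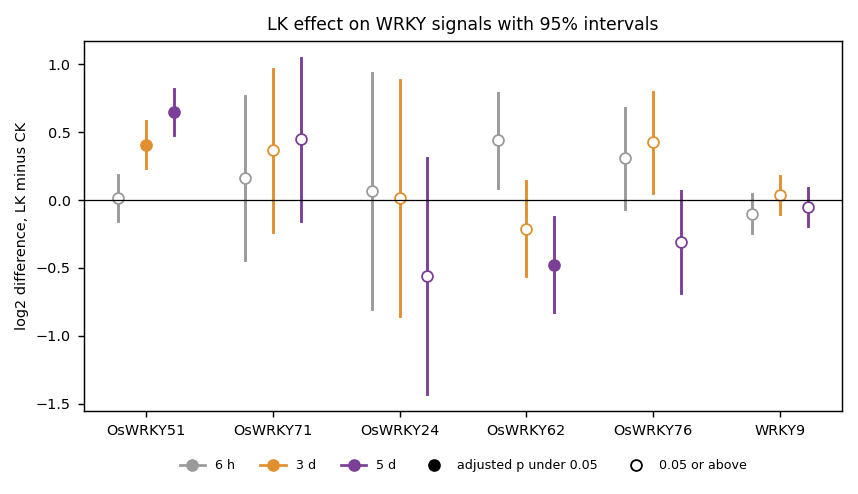
log2 difference, LK minus CK, of the 6 WRKY genes (vertical axis) at 6 h, 3 d and 5 d. Points are limma estimates from 3 LK and 3 CK arrays, lines are 95% intervals, and filled points have an adjusted p under 0.05: OsWRKY51 at 3 d and 5 d and OsWRKY62 at 5 d.

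OsWRKY51 lies on chromosome 4. It is known from rice aleurone, where it acts together with OsWRKY71 to repress gibberellin-induced amylase genes. At 6 h its signal was 151, 148 and 166 on the LK arrays, against 159, 158 and 143 on the CK arrays. At 3 d it was 167, 150.3 and 176 on the LK arrays, against 113, 126 and 132 on the CK arrays. At 5 d it was 236, 246 and 246 on the LK arrays, against 153, 148 and 164 on the CK arrays. The groups overlapped at 6 h, and at 3 d and 5 d every LK array lay above every CK array, as it did for 18.3% and 19.3% of all probe sets tested.

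The log2 difference of OsWRKY51, LK minus CK, amounted to 0.01 at 6 h (SE 0.08, limma adjusted p = 0.987), 0.41 after 3 d (SE 0.08, adjusted p = 0.00252) and 0.65 after 5 d (SE 0.08, adjusted p = 1.83e-05). The 5 d effect exceeded the 6 h effect by 0.63 on the log2 scale (SE 0.12, limma adjusted p = 0.00175), and 4.85% of all probe sets were called for a change of effect in this direction. The step between 6 h and 3 d alone was 0.39 (SE 0.12, limma adjusted p = 0.079) and that between 3 d and 5 d was 0.24 (SE 0.12, adjusted p = 0.425). Neither step passed the threshold for any WRKY gene, against 2.88% and 1.03% of all probe sets.

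The 3 d difference of OsWRKY51 coincided with a low level in CK roots. LK roots averaged 155 ± 9.82, 164.5 ± 13.1 and 243 ± 5.31 over the 3 times in order, while CK roots averaged 153 ± 8.82, 124 ± 9.81 and 155 ± 7.82 (SD, n = 3 each). Within CK roots the 3 d level was below the 6 h level, with a log2 difference of -0.31 (SE 0.08, limma adjusted p = 0.0152, 9.18% of all probe sets lower), and the 5 d level was above the 3 d level, with a log2 difference of 0.32 (SE 0.08, adjusted p = 0.021, 7.56% higher). Leaving out CK 6 h array 1 or 2 or CK 3 d array 1 ended the first of these calls (adjusted p = 0.0546, 0.0575 and 0.0707), and leaving out CK 3 d array 1 or CK 5 d array 1, 2 or 3 ended the second (adjusted p = 0.09, 0.0623, 0.0536 and 0.0531). No other WRKY gene passed this test for either step in CK roots, and none did between 6 h and 5 d (16.8% of all probe sets). The time in culture, seedling age and sampling occasion cannot be told apart across the 3 times, whereas LK and CK roots were compared within a time.

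**Figure D2:**
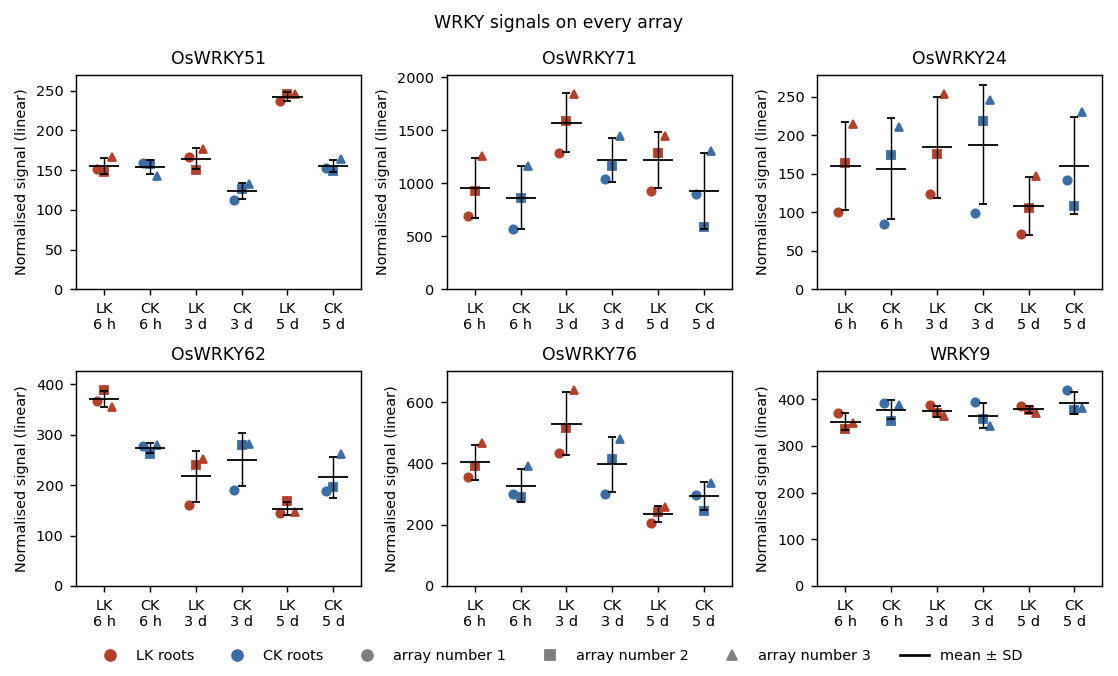
Normalised signal (linear scale, from 0) of the 6 WRKY genes on all 18 arrays, with LK roots left of CK roots at 6 h, 3 d and 5 d; symbols mark the array number, and lines the mean ± SD of 3 arrays. For OsWRKY51 the 5 d LK arrays lie between 236 and 246 and the 5 d CK arrays between 148 and 164, while LK and CK arrays of OsWRKY24 and WRKY9 overlap at every time.

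OsWRKY71, on chromosome 2, is expressed in aleurone, binds W-boxes in an amylase promoter and has been tied to defence. Its signal at 6 h was 691, 925 and 1254 on the LK arrays, against 568, 862 and 1165 on the CK arrays. At 3 d it was 1285, 1590 and 1841 on the LK arrays, against 1046, 1162 and 1449 on the CK arrays. At 5 d it was 927, 1287 and 1449 on the LK arrays, against 896, 585 and 1302 on the CK arrays. The LK mean was above the CK mean at each time, by 1.11, 1.29 and 1.32-fold, but the arrays overlapped at all 3 times. Of the 3 log2 differences, LK minus CK, the one at 5 d was 0.45 (95% interval -0.16 to 1.05, limma adjusted p = 0.286), so that neither no change nor a doubling was outside the interval. As each array was left out the 5 d difference ran from 0.15 (without CK array 2) to 0.73 (without CK array 3), with adjusted p between 0.0818 and 0.77. At 6 h leaving out CK array 1 or LK array 3 turned its log2 difference of 0.16 to -0.11 or -0.05. A second, dimmer probe set for OsWRKY71, with signals between 33.3 and 121, gave log2 differences of 0.11, 0.54 and 0.30 at 6 h, 3 d and 5 d and no call (adjusted p = 0.973, 0.317 and 0.573).

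OsWRKY24, on chromosome 1 and also listed as WRKY8, is a repressor of gibberellin and abscisic acid signalling in aleurone cells. At 6 h its signal was 101, 165 and 215 on the LK arrays, against 84.4, 175 and 211 on the CK arrays. At 3 d it was 124, 176 and 254 on the LK arrays, against 99.7, 218 and 246 on the CK arrays. At 5 d it was 71.5, 106 and 147 on the LK arrays, against 142, 109 and 231 on the CK arrays. LK and CK arrays overlapped at every time, and the 5 d LK group was the dimmest, at a mean of 108 ± 37.9 against 161 ± 63.0 in CK roots (SD, n = 3 each). Its 5 d log2 difference was -0.56 (SE 0.41, 95% interval -1.43 to 0.31, limma adjusted p = 0.36). With the replicate number of the arrays as a block within times, the SE was 0.16 and the limma adjusted p = 0.0246. The small differences at 6 h (0.07) and 3 d (0.01) had no steady direction, running from -0.33 to 0.36 and from -0.39 to 0.27 as each array was left out. Leaving out an array also unbalanced the replicate numbers, which this gene followed, as described further on.

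OsWRKY62 and OsWRKY76 are neighbours on chromosome 9, with 0 other genes between them in the RefSeq gene table, and both are known as negative regulators of resistance to rice pathogens. OsWRKY62, also named XB10, was found as a partner of the immune receptor XA21. Its signal at 6 h was 368, 388 and 356 on the LK arrays, against 278, 262 and 280.1 on the CK arrays. At 3 d it was 160.2, 241 and 251 on the LK arrays, against 189.7, 280.1 and 283 on the CK arrays. At 5 d it was 146, 168 and 147 on the LK arrays, against 188, 197 and 262 on the CK arrays. Every LK array lay above every CK array at 6 h, as for 6.73% of all probe sets, the groups overlapped at 3 d, and every LK array lay below every CK array at 5 d, as for 22.7%.

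The LK mean of OsWRKY62 stood at 1.36 times the CK mean for 6 h, 0.867 times for 3 d and 0.713 times for 5 d. On the log2 scale the difference came to 0.44 at 6 h (SE 0.17, limma adjusted p = 0.377), -0.21 after 3 d (SE 0.17, adjusted p = 0.44) and -0.48 after 5 d (SE 0.17, adjusted p = 0.0475). The effect at 5 d was below that at 6 h by -0.92 on the log2 scale (SE 0.24, limma adjusted p = 0.0188), as it was by the same test for 5.31% of all probe sets. This difference between times was called in 27 of 28 other settings, the exception being all probe sets tested without a filter (adjusted p = 0.09). The 5 d call itself was lost in 16 of 28, among them leaving out any of the 6 arrays of 6 h, any LK array of 5 d, or CK 5 d array 2 or 3, with adjusted p between 0.0533 and 0.191. OsWRKY62 also had lower means at the later times in the controls, averaging 273 ± 9.57, 251 ± 53.0 and 216 ± 40.4 in CK roots at 6 h, 3 d and 5 d (SD, n = 3 each). The 5 d level in CK roots lay at 0.789 times the 6 h level (limma adjusted p = 0.161).

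OsWRKY76, which has also been tied to cold tolerance, had a signal of 355, 390.1 and 465 on the LK arrays of 6 h, against 300.2, 291 and 390.0 on the CK arrays. At 3 d it was 434, 517 and 638 on the LK arrays, against 299, 413 and 478 on the CK arrays. At 5 d it was 206, 241 and 258 on the LK arrays, against 297, 244 and 336 on the CK arrays. The LK mean was 1.23 and 1.33 times the CK mean at 6 h and 3 d and 0.804 times at 5 d, and the arrays overlapped at each time. The log2 differences were 0.31, 0.43 and -0.31 (SE 0.18 each), with limma adjusted p = 0.661, 0.122 and 0.229. With the replicate number of the arrays as a block within times, the SE was 0.09 and the limma adjusted p = 0.259, 0.00976 and 0.0312. The change in its effect between 3 d and 5 d was -0.73 (SE 0.25, limma adjusted p = 0.228, or 0.0241 with the block). OsWRKY76 and OsWRKY62 thus had their highest LK to CK ratios at different times, 3 d and 6 h, and ratios below 1 at 5 d; the difference between the 2 genes was not tested.

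WRKY9, on chromosome 7, varied least. Its signal lay between 336 and 387 on the 9 LK arrays and between 342 and 419 on the 9 CK arrays. LK roots averaged 352 ± 17.5, 374 ± 11.8 and 378 ± 7.58 at 6 h, 3 d and 5 d, against 377 ± 20.4, 365 ± 27.2 and 392 ± 23 in CK roots (SD, n = 3 each). The log2 differences were -0.10, 0.04 and -0.05 (limma adjusted p = 0.732, 0.766 and 0.64), and the lowest and highest bounds of their 95% intervals were -0.24 and 0.18.

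The genes differed in how far replicate arrays of a group lay apart. The residual SD of the log2 signal was 0.60 for OsWRKY24 and 0.41 for OsWRKY71, above those of 99.6% and 98.6% of all probe sets tested. It was 0.25 for OsWRKY76 (90.9%) and 0.23 for OsWRKY62 (88.2%). It was 0.09 for OsWRKY51 (25.3%) and 0.07 for WRKY9 (14.7%), against a median of 0.13 over all probe sets. OsWRKY51 was thus among the steadier genes.

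The spread of OsWRKY24, OsWRKY71 and OsWRKY76 followed the replicate number of the arrays. In all 6 groups the array numbered 3 was the highest of its group for each of these genes, a pattern that 1.47% of all probe sets showed. For the second, dimmer probe set of OsWRKY71 the highest array was number 3 in 4 groups and number 1 in 2. The mean log2 difference between arrays numbered 3 and those numbered 1 was 1.08 for OsWRKY24, 0.68 for OsWRKY71 and 0.42 for OsWRKY76, and replicate number as a term over all 18 arrays gave limma adjusted p = 0.00139, 0.0092 and 0.00833, with 4.39% of all probe sets called. For WRKY9 the array numbered 1 was the highest in all 6 groups, as for 1.83% of all probe sets, but the term gave an adjusted p = 0.155. Each group held arrays 1, 2 and 3, so the number was balanced over LK and CK. The labels do not say what the number marks.

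**Figure D3:**
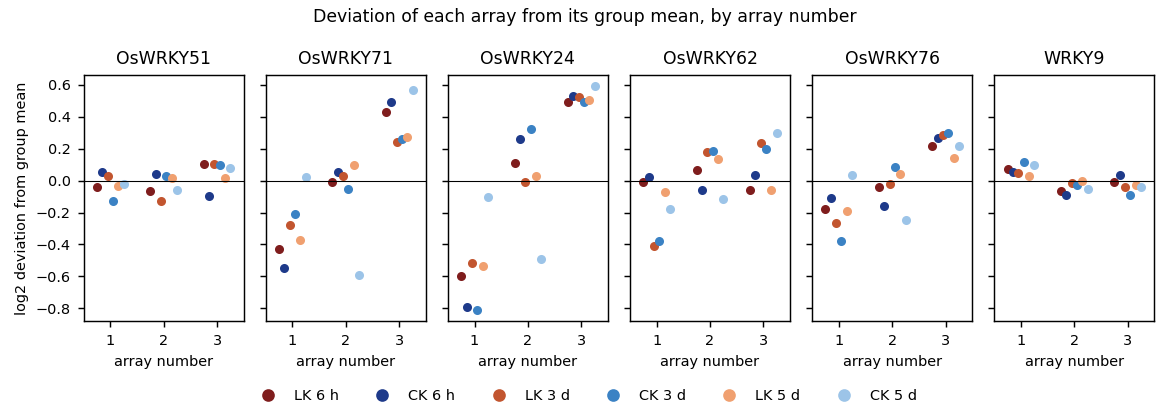
Deviation of each array from the mean of its group (log2 scale, vertical axis) by array number (horizontal axis) for the 6 WRKY genes, with colours for the 6 groups. Arrays numbered 3 lie above 0 in all 6 groups for OsWRKY71, OsWRKY24 and OsWRKY76, and the points of OsWRKY51 and WRKY9 stay near 0.

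After removal of group means, OsWRKY24 and OsWRKY71 deviated together over the 18 arrays, with Pearson r = 0.91 and Spearman rho = 0.89 (permutation p = 6e-05 and 2e-04, adjusted over the 15 pairs of WRKY genes 9e-04 and 0.0015). Without the 2 arrays farthest from the median of OsWRKY24, r was 0.92. With the mean of each replicate number removed as well, r was 0.75. OsWRKY24 and OsWRKY76 had r = 0.89 and rho = 0.86 (permutation p = 0.00022 and 0.00033, adjusted 0.0011 and 0.0016), with r = 0.89 without the 2 farthest arrays and 0.64 without number means. OsWRKY71 and OsWRKY76 had r = 0.83 and rho = 0.82 (permutation p = 0.00018 and 0.00017, adjusted 0.0011 and 0.0015), with r = 0.85 without the 2 farthest arrays and 0.40 without number means. For each of these 3 pairs r was lower once the number means were removed. The permutations moved arrays within groups whatever their number, so their p-values do not separate a link between genes from a shared number pattern. No p-value was computed for r without number means. An r above 0.8 with OsWRKY71 was found for 1.91% of the other probe sets tested. The neighbours OsWRKY76 and OsWRKY62 had r = 0.71 and rho = 0.72 (permutation p = 0.02 and 0.012, adjusted 0.066 and 0.045), with r = 0.60 without the 2 farthest arrays and 0.65 without number means. The other 11 pairs had an adjusted p of at least 0.063 for both measures.

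Genes of the surrounding pathway were looked up by name in 3 lists, of chitin receptors and MAP kinases upstream, of salicylate signalling, and of outputs (pathogenesis-related proteins, chitinases, diterpenoid phytoalexin enzymes and gibberellin targets in aleurone). Of 63 names, 36 genes were matched and 30 passed the filter. At 6 h none of the 30 was called, against 0.529% of all probe sets tested. Among the 8 upstream genes 1 was called, MPK1 (LOC4340170), a MAP kinase, lower at 5 d, against 12.8% of all probe sets tested. It averaged 953 ± 7.68 in LK roots and 1105 ± 60.5 in CK roots at 5 d (limma adjusted p = 0.0114). The median log2 differences of the upstream genes were 0.04, -0.02 and -0.06 at 6 h, 3 d and 5 d. Among the 5 salicylate genes, NH1 (LOC4327315), also listed under the name of the salicylate receptor NPR1, was lower at 3 d. It averaged 149 ± 24.7 in LK roots and 194 ± 13.5 in CK roots (limma adjusted p = 0.0167), and 5.75% of all probe sets tested were lower at 3 d. Another gene listed under NPR1 (LOC4325503) was not called at any time, and averaged 1403 ± 51.5 in LK roots and 1378 ± 17.2 in CK roots at 3 d (adjusted p = 0.796). TGAL11 (LOC4351527), a TGA-type bZIP factor, was higher at 5 d, at 334 ± 24.7 in LK roots and 248 ± 6.27 in CK roots (adjusted p = 0.0174). Of all probe sets tested, 10.5% were higher at 5 d.

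Of the 17 output genes tested, LK roots had 3 higher and 1 lower after 3 d, and 2 higher and 1 lower after 5 d. All probe sets tested had 8.5% higher and 5.75% lower after 3 d, and 10.5% higher and 12.8% lower after 5 d. The largest difference was that of LOC4338719, 1 of 2 genes listed under the name Cht1, a chitinase that cleaves fungal cell-wall chitin. It averaged 731 ± 57.9 in LK roots and 318 ± 80.9 in CK roots at 3 d, and 1790 ± 189 in LK roots and 589 ± 22.2 in CK roots at 5 d (limma adjusted p = 3.04e-05 and 7.18e-07). The other Cht1 gene (LOC4342115), Cht2/Cht8 (LOC4349267), Cht3 (LOC4342114) and the pathogenesis-related gene PBZ1 (LOC4352491) were not called. Their LK to CK ratios were, in this order, 1.04, 0.913, 0.878 and 0.863 at 3 d. At 5 d they were 1.16, 0.921, 0.971 and 1.09. GAMYB (LOC4327362), the gibberellin-regulated MYB activator of amylase genes, averaged 154 ± 20.0 in LK roots and 113 ± 14.2 in CK roots at 3 d, and 169 ± 4.05 in LK roots and 118 ± 4.50 in CK roots at 5 d (limma adjusted p = 0.00644 and 0.00133). The amylase genes RAmy3D and Amy1A did not pass the filter on low signals.

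The genes called under phytoalexin names differed in direction. LOC4341447 was matched under CYP76M7, the name of a cytochrome P450 of phytocassane synthesis. The match rested on the name alone, and its locus number lay apart from those of CYP76M5 and CYP76M8 (LOC4329721 and LOC4329722). It averaged 197 ± 16.2 in LK roots and 302 ± 23.7 in CK roots at 3 d, and 122 ± 12.5 in LK roots and 309 ± 32.9 in CK roots at 5 d (limma adjusted p = 0.000562 and 6.68e-08). MAS (LOC4335093), the momilactone A synthase, was higher at 3 d, at 109 ± 18.0 in LK roots and 64.8 ± 6.10 in CK roots (adjusted p = 0.0313). The other diterpenoid phytoalexin genes tested were not called. Their log2 differences ran from -1.485 (CPS2) to -0.22 (CYP76M8) at 6 h and from -0.02 (CYP71Z7) to 0.70 (KSL7) at 3 d. At 5 d they ran from -0.24 (CYP99A3) to 0.86 (CPS2). The median log2 difference of the 17 output genes was -0.54, 0.36 and 0.10 at 6 h, 3 d and 5 d, with no output gene called at 6 h.

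**Figure D4:**
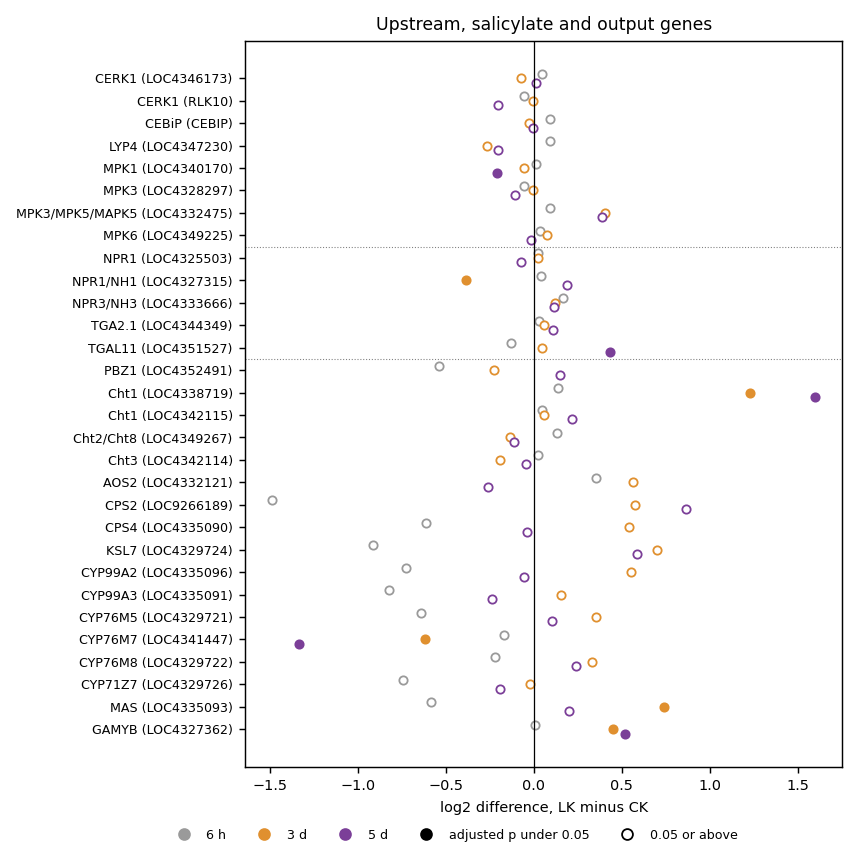
log2 difference, LK minus CK (horizontal axis), at 6 h, 3 d and 5 d of the 30 tested genes of the 3 pathway lists, separated by dotted lines into upstream, salicylate and output genes, each row labelled with the name searched and the gene. Filled points have an adjusted p under 0.05, and the chitinase gene LOC4338719 and the gene matched as CYP76M7 (LOC4341447) lie farthest from 0 at 5 d, on opposite sides.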

How the data were processed

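The deposited table gave 1 signal intensity per probe set and array on a linear scale, for 57194 probe sets on 18 arrays, which the authors normalised with dChip; the processing notes also name GCOS 1.0 and MAS5. No detection calls or probe-level files were used here, and signal levels were not compared between genes, though marker signals were summed. Signals were floored at 10 and log2-transformed, and the top 44% of probe sets by mean (25165, geometric mean at least 32.2) were fitted in R 4.3.3 with limma 3.58.1 (lmFit, eBayes with intensity trend, 1 term per group, 12 residual and 5.03 prior degrees of freedom), with p-values adjusted by Benjamini-Hochberg within each comparison. On simulated data the fit was tested before use. The simulated noise was independent between arrays and held no replicate-number pattern, so the fit was not tested under such a pattern. Genes were named through the platform annotation and the RefSeq gene table: 22436 probe sets had 1 gene, 95 several and 34663 none. The strongest probe set by mean over 18 arrays stood for a gene; 7 probe sets matched the 6 WRKY genes and all passed the filter. The plan named WRKY genes called for an LK effect or for its change between times. It also named those with the highest CK signals and with the smallest adjusted p between CK times. Values per array were planned for genes with a called LK effect, and were given for OsWRKY71, OsWRKY24 and OsWRKY76 as well. The WRKY genes, the pathway lists and the root and shoot markers were chosen with earlier results of these data known. Protein and promoter sequences were not used here, and genome positions served only to name chromosomes and neighbouring genes. Alternatives were other filters, floors, normalisations and probe-set choices, fits on only the arrays compared, replicate number as a block, the study's threshold, and each array left out in turn. The precision is set by the 3 arrays of a group.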

Additional observations from a re-analysis of the deposited data

Results flagged for a closer look

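The effect of K+ deficiency on 2 WRKY genes differed between sampling times by a direct test of the difference. For OsWRKY51 the log2 difference, LK minus CK, was 0.63 larger at 5 d than at 6 h (limma adjusted p = 0.00175, every LK array above every CK array at 5 d and overlap at 6 h). Of all probe sets, 4.85% were called for a change in this direction, and 19.3% had every LK array above every CK array at 5 d. For OsWRKY62 the change was -0.92 on the same scale (limma adjusted p = 0.0188), with every LK array above every CK array at 6 h and every LK array below every CK array at 5 d. The shares of all probe sets were 5.31% for a call in this direction, 6.73% for the 6 h pattern and 22.7% for the 5 d pattern. No WRKY gene's LK effect differed between 5 d and 3 d or between 3 d and 6 h past the threshold, against 1.03% and 2.88% of all probe sets, although 1 and 2 genes had an unadjusted limma p under 0.05 there.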

How the results depend on the processing

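OsWRKY51 was called higher in LK roots at 3 d and 5 d in all 28 other settings, with log2 differences of 0.33 to 0.47 and 0.55 to 0.69. The count of genes lower at 5 d was 0 without a filter, with median centring, with log2 of the signal plus 32, with a floor of 50 and without an intensity trend, and the effect differed between 5 d and 6 h for 1 gene without a filter. The count of genes changed in CK roots between 3 d and 5 d was 0 with quantile normalisation, with median centring and with only the arrays compared, and that between 6 h and 3 d was 0 with only the arrays compared. By the study's threshold (a ratio of 1.2 and an unadjusted p), 1 gene was higher at 6 h (2.58% of all probe sets) and 2 at 3 d (11.2%), the effect differed for 2 genes in the 6 h to 3 d step (11.8%), for 1 in the 3 d to 5 d step (9.57%) and for 3 between 5 d and 6 h (20.1%), and 2 differed in CK roots in the 3 d to 5 d step (15.4%). With each array left out, the genes lower at 5 d, those whose effect differed between 6 h and 3 d, and those changed in CK roots at either step numbered 0 to 1 each. The causes were not tested.

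Same-numbered LK and CK arrays of a time correlated in their deviations at r = -0.09 to 0.26, over 0.1 in 4 of 9 pairs. In 6 of 9 an array correlated best with its own number. The main fit did not take the numbers to pair the samples, but these values do not settle whether they do. With the replicate number as a block within times, 2 genes were higher at 3 d (8.02% of all probe sets) and 3 lower at 5 d (11.9%), 1 differed in effect in the 6 h to 3 d step (2.46%), 1 in the 3 d to 5 d step (0.807%) and 3 between 5 d and 6 h (9.06%), and 2 differed in CK roots at each step (14.9% and 8.41%). With the block across times (chosen after seeing the data) the counts were 2, 3, 0, 1, 3, 2 and 2, and the shares 10.8%, 14.9%, 4.09%, 1.45%, 13.2%, 18.9% and 13.5%. Within times the block added OsWRKY76 at 3 d (limma adjusted p = 0.00976) and 5 d (0.0312), OsWRKY24 at 5 d (0.0246), the effect of OsWRKY62 in the 6 h to 3 d step (0.0345), that of OsWRKY76 in the 3 d to 5 d step (0.0241) and between 5 d and 6 h (0.012), and, in CK roots, OsWRKY71 in the first step and OsWRKY76 in the second.

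The log2 difference at 3 d of OsWRKY24 was -0.032 with quantile normalisation and -0.030 with median centring, and that of WRKY9 was -0.0062 and -0.0085. With each array left out, OsWRKY24 ranged from -0.33 to 0.36 at 6 h and from -0.39 to 0.27 at 3 d, OsWRKY71 from -0.11 to 0.41 and OsWRKY51 from -0.036 to 0.047 at 6 h, and WRKY9 from -0.0093 to 0.095 at 3 d. Each group had 3 arrays.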

Other observations

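Over the 18 arrays, after removal of group means, the probe sets whose deviations were most like those of OsWRKY71 included several named genes of jasmonate and stress responses, a set picked after the values were seen and given as a description. JAZ10 (LOC4331834), JAZ13 (LOC4348531) and JAZ9 (LOC4331832), which belong to the JAZ repressors of jasmonate signalling, had r = 0.98, 0.97 and 0.97, at ranks 7, 14 and 18 of 25164 probe sets. The transcription factor genes BHLH148 (LOC4334060), MYB4 (LOC4336407), DREB1G (LOC4330306) and DREB1A (LOC4347620) had r = 0.98, 0.97, 0.97 and 0.97, and ABA8OX1 (LOC9269675), an abscisic acid 8'-hydroxylase gene, had r = 0.98. OsWRKY24 stood at rank 195 and OsWRKY76 at rank 399. An r above 0.8 was found for 481 probe sets, or 1.91%. All these points share the arrays and the replicate numbers described for OsWRKY71.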
